A study of Rattus norvegicus with 11 samples.

Results

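The genes of the rat major histocompatibility complex (MHC) and of antigen presentation were followed in spinal cord tissue at the lesion after contusion injury. The members were every protein-coding row of the count and FPKM tables whose name begins with RT1-, the prefix of the rat MHC, together with B2m, Tap1, Tap2, Tapbp, Psmb8, Psmb9, Psmb10, Cd74, Ciita and Nlrc5. These names gave 45 of 30443 rows. They were 24 class I chains, 8 rows of class I processing genes (Tap2 has 2 rows), 6 class II chains of the B, D and H type, 4 chains of the class II loading molecules DM and DO, and the 3 genes Cd74, Ciita and Nlrc5. A row entered the test where its FPKM (fragments scaled to transcript length and to the library's mapped fragments, the unit used here to compare levels between genes) exceeded 1 in at least 1 library, which 34 of the 45 members and 14867 of all rows did.

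RNA-seq was performed on female Sprague-Dawley rats, aged 12 to 14 weeks on entry to the study, in 4 groups. The control group (3 libraries) received a dorsal laminectomy without contusion and was collected at the 6-month time. The groups 1M (3 libraries), 3M (3 libraries) and 6M (2 libraries) received a moderate contusive spinal cord injury (SCI) at the ninth thoracic vertebra and were collected 1, 3 and 6 months later. Age at collection thus differed between the times, and 1M and 3M were younger than control. An effect of age cannot be told apart from one of time, nor at 1M and 3M from one of injury. Each library pooled the tissue of 3 rats, taken from a short segment at the epicenter or at the equivalent level, so the spread between libraries is a spread between pools. A further 6M library that the study set aside as an outlier was not analysed here. Since whole tissue was measured, more cells of a type and more RNA per cell cannot be told apart for any value below.

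Total counts ran from 10057646 to 29565174 per library, apart from 49986531 in 1M replicate 1. That last total was above the number of read pairs listed for its library. Dividing its counts by 2 left the number of members called unchanged in every comparison. Scaling removes nearly all of such a factor, so this could not show whether the surplus of counts matters. The tissue label held: Mbp, Snap25 and Gfap, which mark oligodendrocytes, neurons and astrocytes, had control means of 62000, 1770 and 7280 CPM (counts scaled to a common library total with the trimmed mean of M-values). The study lists batches of library preparation and sequencing, none of which mixed controls with injured tissue, so for every comparison with control an effect of batch and one of injury cannot be told apart. The comparison of 3M with 1M is the one that can be made within a batch, by leaving out 1M replicate 3. One library stood apart in the class I rows, 3M replicate 3, and results that rest on it are given with and without it.

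MHC class I molecules present peptides from inside the cell to CD8 T cells. Their heavy chain pairs with beta-2 microglobulin (B2m), and the peptides are cut by the proteasome, carried into the endoplasmic reticulum by the Tap1 and Tap2 transporter and loaded with the help of tapasin (Tapbp). Interferon gamma exchanges the catalytic subunits of the proteasome for Psmb8, Psmb9 and Psmb10, which form the immunoproteasome. MHC class II molecules present peptides from the endosome to CD4 T cells, chiefly on macrophages, activated microglia, dendritic cells and B cells. Their alpha and beta chains assemble on the invariant chain (Cd74), and DM, restrained by DO, exchanges the last piece of that chain for peptide. Nlrc5 is the known transcriptional activator of class I genes and Ciita that of class II genes. In healthy spinal cord both classes are kept low.

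The sequences before the start sites are shown first because the promoters of both classes share known elements and the report contrasts the classes. RefSeq windows of the GRCr8 build, 250 bases before to 50 after the start, were found for 39 members. They were searched on both strands for CCAAT (the Y box core, bound by NF-Y), TGACG (the short X2 box core, contained in the longer TGACGTCA) and GAAANNGAA (the core of an interferon response element). The 200 bases before the start are printed 5′ to 3′ on the gene's strand for the invariant chain, a D and a B chain of class II, the most abundant class I chain, and 3 class I processing genes of which Psmb10 is the one without a call. Capitals mark every match to any of these motifs.
Cd74, chr18:56527006-56527205, plus strand: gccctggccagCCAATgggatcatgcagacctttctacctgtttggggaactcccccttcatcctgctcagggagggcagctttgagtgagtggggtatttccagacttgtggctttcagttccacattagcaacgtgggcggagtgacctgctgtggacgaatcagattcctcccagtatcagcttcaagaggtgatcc
RT1-Da, chr20:4515215-4515414, plus strand: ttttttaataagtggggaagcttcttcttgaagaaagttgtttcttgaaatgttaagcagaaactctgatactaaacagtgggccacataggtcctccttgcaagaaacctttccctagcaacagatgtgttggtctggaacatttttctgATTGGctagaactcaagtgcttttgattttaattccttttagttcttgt
RT1-Ba, chr20:4576857-4577056, plus strand: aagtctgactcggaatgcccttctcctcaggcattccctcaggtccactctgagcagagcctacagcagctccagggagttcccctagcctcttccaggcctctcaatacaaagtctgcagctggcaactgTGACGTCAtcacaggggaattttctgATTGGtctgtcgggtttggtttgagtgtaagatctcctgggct
RT1-A2, chr20:4872671-4872870, plus strand: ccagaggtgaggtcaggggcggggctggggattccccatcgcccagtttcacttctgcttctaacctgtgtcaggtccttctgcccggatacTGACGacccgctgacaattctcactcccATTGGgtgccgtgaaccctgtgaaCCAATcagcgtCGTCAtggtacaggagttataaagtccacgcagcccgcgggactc
B2m, chr3:129549130-129549329, plus strand: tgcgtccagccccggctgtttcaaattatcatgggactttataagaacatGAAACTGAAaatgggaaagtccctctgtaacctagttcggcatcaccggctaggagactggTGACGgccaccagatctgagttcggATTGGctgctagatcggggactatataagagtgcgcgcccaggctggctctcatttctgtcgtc
Tap1, chr20:4668544-4668743, minus strand: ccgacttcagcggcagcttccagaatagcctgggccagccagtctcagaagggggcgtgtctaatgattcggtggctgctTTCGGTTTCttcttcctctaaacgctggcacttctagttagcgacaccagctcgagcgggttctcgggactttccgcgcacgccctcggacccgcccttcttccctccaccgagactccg
Psmb10, chr19:50743293-50743492, minus strand: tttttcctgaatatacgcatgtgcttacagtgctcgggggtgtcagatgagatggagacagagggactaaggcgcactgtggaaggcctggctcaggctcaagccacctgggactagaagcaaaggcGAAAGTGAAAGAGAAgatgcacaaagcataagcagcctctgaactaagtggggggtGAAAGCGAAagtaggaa

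Only 1 spelling of the interferon core was searched for, so a window without a match can still hold another form of it. The spelling GAAANNGAA occurred in 9.71% of all 33469 promoter windows. It was in 6 of the 7 windows of class I processing genes, Psmb9 being the exception, and in 3 of the 22 windows of class I chains (RT1-N3, RT1-S2 and RT1-S3). It was in 0 of the 6 windows of class II chains, in 0 of the 3 of DM and DO chains and not in that of Cd74. CCAAT, found in 37.5% of all windows, was in all 6 class II chain windows, all 3 DM and DO windows, that of Cd74, 16 of 22 class I chain windows and 3 of 7 processing windows. CCAAT and TGACG stood together in 7.75% of all windows, in 6 of 22 class I chain windows, in 2 of 7 processing windows and in 1 of 6 class II chain windows, that of RT1-Ba. RT1-Ba was the single member with the full TGACGTCA, which 1.83% of all windows held. Tap1 and Psmb9 are neighbours on opposite strands, with start sites 457 bases apart. A match is a description of letters and not a measured binding site. Since other spellings were not searched for, the GAAANNGAA counts do not show that class I or class II chains lack an interferon element.

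After injury, the members called higher lay mostly on the class I side, which held 20 chains and 6 processing genes of the 34 tested. No member was called lower. Of the 34 members tested, 15 were higher at 1M, 19 at 3M and 17 at 6M than in control, at an adjusted p under 0.05 in edgeR's quasi-likelihood test with Benjamini-Hochberg adjustment over all genes tested. Among all 14867 genes tested, 25.5% were called higher at 1M, 29.7% at 3M and 26.8% at 6M. No member was called lower at any of the 3 times, and none was lower at an unadjusted p under 0.05 in edgeR, in DESeq2 or in limma. Of all genes, 31.5% were called lower at 1M, 31.4% at 3M and 27.2% at 6M. All 8 SCI libraries lay above all 3 control libraries for 15 of the 34 members, against 22.8% of all genes. In FPKM it was 19 of 34 members against 40.2% of all genes. Of the 34, 6 passed the filter only through SCI libraries (RT1-M2, RT1-T24-2, RT1-S2, RT1-T24-1, RT1-CE6 and RT1-DOb), so that those among them that were called had to lie higher after injury. RT1-M2, RT1-T24-2 and RT1-DOb are also among the members without overlap in CPM and in FPKM, a separation that such a filter favours. Of the 28 that passed through a control library, 12, 16 and 15 were called higher at 1M, 3M and 6M. With any 1 library left out, 12 of the 15 calls at 1M, 17 of the 19 at 3M and 10 of the 17 at 6M were kept in all 11 fits. At 1M, RT1-CE10, RT1-M3-1 and RT1-T24-3 lost the call in at least 1 such fit, and at 3M RT1-T24-3 and RT1-T24-4 did. The 6M count fell to 10 without 6M replicate 2, which ended the calls of RT1-A2, RT1-CE4, RT1-CE5, RT1-T24-2, RT1-T24-4, RT1-DMb and Tapbp at that time.

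The 2 classes differed in their counts, though only 4 class II chains were tested. Of all genes, 25.5%, 29.7% and 26.8% were called higher at 1M, 3M and 6M. Class I chains were higher in 8, 12 and 11 of 20 rows at 1M, 3M and 6M, and class I processing genes in 5 of 6 at each time. The class I chain count at 1M was 5 without control replicate 3, and at 6M it was 6 without 6M replicate 2. Among the 15 class I chains that passed the filter through a control library it was 6, 10 and 9. The B and D chains of class II were called in 0 of 4 rows at each time, also at an unadjusted p under 0.05 and with DESeq2 and limma, and Cd74 was not called. Of the DM and DO chains, 2, 2 and 1 of 3 rows were higher, or 1 of 2 at each time without RT1-DOb, which passed the filter only through SCI libraries. The median log2 fold change was 0.49, 1.00 and 1.00 for class I chains, 1.02, 1.28 and 1.10 for processing genes, and -0.077, -0.089 and -0.44 for class II chains. Without control replicate 1 the class II median was 0.36, 0.44 and -0.006. Over all genes tested the median was -0.053, 0 and 0.0041. All SCI libraries lay above all controls for 8 of 20 class I chains, 5 of 6 processing genes, 2 of 3 DM and DO chains and 0 of 4 class II chains. Of all genes, 22.8% did so. The class I chains RT1-M2 and RT1-T24-2 and the DO chain RT1-DOb, counted here, passed the filter only through SCI libraries, which favours such separation. No test of the difference between the classes was made, since a score over chosen members gets none.

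**Figure D1:**
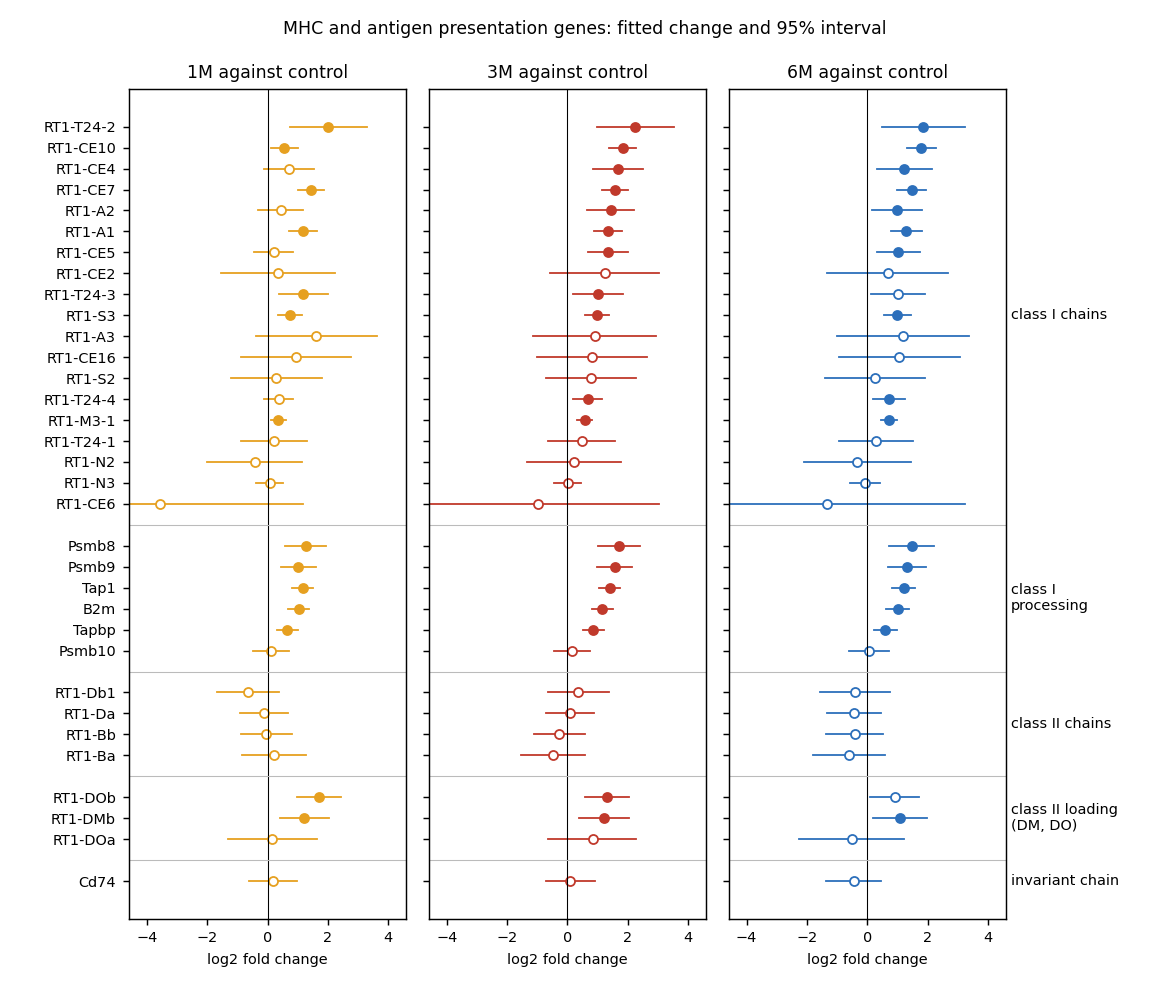
Fitted log2 fold change against control (x axis) for 33 of the 34 members tested, by class and within a class by the change at 3M; bars are 95% intervals without adjustment, filled points have an adjusted p under 0.05. Class I chains and processing genes lie mostly to the right of 0, while the class II chains and Cd74 straddle it; RT1-M2, with no control count, is left out, and the intervals of RT1-CE6 run off the axis.

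The light chain and 4 of the other 5 processing genes tested were higher at every time, Psmb10 being the exception. B2m was at 827, 1010 and 1080 CPM in the control libraries, at 2350, 1880 and 1740 at 1M, at 1990, 2110 and 2420 at 3M, and at 1670 and 2220 at 6M. Every SCI library was above every control. The log2 fold change was 1.03 ± 0.16 (SE) at 1M, 1.16 ± 0.16 at 3M and 1.00 ± 0.17 at 6M, with edgeR adjusted p of 0.000467, 0.000151 and 0.000929. Per length, B2m was the most abundant member, with a control mean of 268 FPKM and a 3M mean of 1020 FPKM.

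Tap1, a subunit of the peptide transporter, was at 17, 20.1 and 15.6 CPM in control, at 45.8, 36.3 and 35.5 at 1M, at 47.7, 38.1 and 53 at 3M, and at 38.2 and 42.1 at 6M. The groups did not overlap, and the log2 fold change was 1.17 ± 0.16, 1.41 ± 0.16 and 1.20 ± 0.17 (SE, edgeR adjusted p = 0.000202, 4.51e-05 and 0.000294). The other subunit, Tap2, had 2 rows at no more than 0.861 CPM in any library and was not tested. Tapbp, which holds empty class I molecules at the transporter, was at 28.7, 26.7 and 21.1 CPM in control, at 47.3, 39.5 and 33 at 1M, at 46.1, 42.4 and 49.3 at 3M, and at 35 and 41.5 at 6M. Its SCI libraries were again all above control, with log2 fold changes of 0.66 ± 0.16, 0.85 ± 0.16 and 0.59 ± 0.17 (SE, edgeR adjusted p = 0.0052, 0.000915 and 0.0146).

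The immunoproteasome subunits did not move alike. Psmb8 was at 7.09, 3.91 and 5.53 CPM in control, at 16.6, 12.6 and 10.8 at 1M, at 14, 14.3 and 26.4 at 3M, and at 12.8 and 18 at 6M. Psmb9 was at 9.52, 14.1 and 12.4 CPM in control, at 33, 20.9 and 18.3 at 1M, at 33.1, 29.5 and 43.8 at 3M, and at 24 and 34.9 at 6M. Both rose at every time without overlap, by log2 fold changes of 1.27 ± 0.31, 1.71 ± 0.31 and 1.47 ± 0.34 for Psmb8 and of 1.01 ± 0.26, 1.56 ± 0.26 and 1.30 ± 0.28 for Psmb9 (SE, largest edgeR adjusted p = 0.00778). Psmb10 was at 31, 65.9 and 40.4 CPM in control, at 63.3, 44.3 and 40.7 at 1M, at 47.5, 43.4 and 60.5 at 3M, and at 40.6 and 54.5 at 6M. All its SCI libraries lay inside the control range, and its log2 fold changes of 0.12, 0.15 and 0.064 had 95% intervals from -0.47 to 0.71, from -0.45 to 0.74 and from -0.60 to 0.72. The constitutive subunits that Psmb8 and Psmb9 replace fell: Psmb5 by 0.87, 1.01 and 0.94 on the log2 scale, and Psmb6 by 0.80, 0.88 and 0.78 (largest edgeR adjusted p = 0.0077). Psmb7, the counterpart of Psmb10 and named after its values were seen, dropped by 0.62, 0.71 and 0.49 (largest edgeR adjusted p = 0.0413).

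Nlrc5, the class I activator, was below the FPKM filter, with group means between 0.127 and 0.837 FPKM, and was tested in a fit of all 24791 rows with a count. It was at 2.15, 0.474 and 1.99 CPM in control, at 5.66, 6.76 and 7.73 at 1M, at 9.35, 6.53 and 9.48 at 3M, and at 7.26 and 7.39 at 6M. The groups did not overlap. The log2 fold change was 2.16 ± 0.32, 2.49 ± 0.32 and 2.27 ± 0.34 (SE, edgeR adjusted p = 0.000153, 3.01e-05 and 0.000172), in a fit that called 19.9% of rows higher at 1M, 23.2% at 3M and 20.2% at 6M. In fits of the same rows it passed the threshold with every single library left out, and under the other scalings, DESeq2, limma, filterByExpr, the replicate block and 1 batch per group.

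Among class I chains, the RT1-A rows belong to the classical region, and the RT1-CE, RT1-M, RT1-N, RT1-S and RT1-T24 rows to the region that holds mostly nonclassical genes. Class I genes of the rat arose by duplication, how alike these rows are was not measured here, and how reads that match several of them were counted is not given in the sources used here, so each row's value is uncertain. In levels per length, the control means of the 3 highest chains were 40.3 FPKM for RT1-A2, 34.3 FPKM for RT1-CE16 and 32.6 FPKM for RT1-CE4.

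RT1-A2 was at 43.7, 107 and 79.5 CPM in control, at 94.1, 90.8 and 125 at 1M, at 156, 168 and 295 at 3M, and at 113 and 190 at 6M. In CPM the 1M libraries overlapped control and the 3M and 6M libraries did not. In FPKM the 1M libraries (56.2 to 73.8) also lay above control (25.3 to 51.7). The log2 fold change was 0.43 ± 0.34 at 1M (SE, edgeR adjusted p = 0.305), 1.43 ± 0.34 at 3M (adjusted p = 0.00454) and 0.98 ± 0.37 at 6M (adjusted p = 0.0452). RT1-A1 was at 16.1, 23 and 28.1 CPM in control, at 46.9, 59.5 and 46 at 1M, at 69.7, 56.4 and 45.9 at 3M, and at 49.6 and 60.1 at 6M. It rose without overlap at all times, by 1.17 ± 0.21, 1.35 ± 0.21 and 1.29 ± 0.23 (log2, SE, largest edgeR adjusted p = 0.00117).

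Of the CE rows, RT1-CE7 was at 13.7, 14.1 and 19 CPM in control, at 37.8, 47.7 and 43 at 1M, at 58.5, 43.9 and 38.6 at 3M, and at 36.8 and 50.2 at 6M. Like RT1-A1, it was above control in every SCI library and was not called between any of the times, with log2 fold changes of 1.44 ± 0.20, 1.58 ± 0.20 and 1.47 ± 0.21 (SE, largest edgeR adjusted p = 0.00034). RT1-CE10 was at 6.44, 4.86 and 6.33 CPM in control, at 7.99, 11.1 and 7.12 at 1M, at 21.6, 19.2 and 22.4 at 3M, and at 17.3 and 23.5 at 6M. Its libraries fell into 3 separate levels, with log2 fold changes of 0.56 ± 0.20 at 1M (SE, edgeR adjusted p = 0.0363), 1.83 ± 0.20 at 3M (4.26e-05) and 1.78 ± 0.22 at 6M (0.000139). The 1M call of RT1-CE10 was lost without control replicate 2, control replicate 3, 1M replicate 2 or 3M replicate 1 (adjusted p = 0.112, 0.062, 0.145 and 0.051) and with the replicate number as a block (0.0661).

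RT1-CE5 was at 14.7, 28.7 and 17.4 CPM in control, at 23.3, 21 and 24.8 at 1M, at 38.9, 41.1 and 71.8 at 3M, and at 32 and 49.2 at 6M. In CPM all 1M libraries lay within the control range and all later ones above it, with log2 fold changes of 0.20 ± 0.29, 1.34 ± 0.30 and 1.02 ± 0.32 (SE, edgeR adjusted p = 0.582, 0.00276 and 0.0207). In FPKM the 1M libraries of RT1-CE5 (23.8 to 27.9) also lay above control (13.1 to 18.6), so the separation at 1M depended on the unit. RT1-CE4 was at 14.8, 21.9 and 18.7 CPM in control, at 28.9, 26.2 and 35.6 at 1M, at 34.3, 52.2 and 89.8 at 3M, and at 25.8 and 60.4 at 6M. Every SCI library was above control, and the log2 fold changes were 0.71 ± 0.37, 1.67 ± 0.38 and 1.23 ± 0.41 (SE, edgeR adjusted p = 0.128, 0.00317 and 0.0265).

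RT1-S3 was at 47, 56.9 and 55.9 CPM in control, at 114, 69.4 and 82.6 at 1M, at 107, 94 and 115 at 3M, and at 91.8 and 120 at 6M. It rose at each time without overlap, by 0.74 ± 0.18, 0.98 ± 0.18 and 0.99 ± 0.20 (log2, SE, largest edgeR adjusted p = 0.0058). RT1-M3-1, counterpart of the mouse H2-M3 chain that presents formylated peptides, was at 21.7, 23.5 and 21.8 CPM in control, at 30.1, 30.6 and 24.6 at 1M, at 32.2, 33.5 and 33.7 at 3M, and at 33.8 and 39.6 at 6M. It had the smallest fitted changes of any class I chain called at all 3 times, at 0.35 ± 0.11, 0.57 ± 0.11 and 0.72 ± 0.12 (log2, SE, edgeR adjusted p = 0.0188, 0.00119 and 0.000723), and the 1M call was lost without control replicate 3, 1M replicate 1 or 1M replicate 2 (adjusted p = 0.0526, 0.0546 and 0.0729).

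RT1-T24-4 was at 31.1, 40.4 and 38.4 CPM in control, at 58.2, 34.2 and 49.4 at 1M, at 49.5, 57.7 and 67.5 at 3M, and at 47.9 and 73.4 at 6M. In CPM only 1M replicate 2 overlapped control, and the log2 fold changes were 0.37 ± 0.22, 0.67 ± 0.22 and 0.73 ± 0.24 (SE, edgeR adjusted p = 0.172, 0.0217 and 0.0255). In FPKM every SCI library (14.6 to 33.6) lay above control (11.6 to 13.3). The 3M call was lost without control replicate 1 or 3M replicate 3 (adjusted p = 0.0657 and 0.0766), and the 6M call without control replicate 1 or 6M replicate 2 (0.0714 and 0.291), while without control replicate 3 it was at the threshold (0.05). RT1-T24-3 was at 14.7, 8.06 and 6.89 CPM in control, at 26.7, 18.8 and 21.6 at 1M, at 11.9, 17 and 30.9 at 3M, and at 16.4 and 23.1 at 6M. Control replicate 1 overlapped 3M replicate 1, and the log2 fold changes were 1.19 ± 0.37, 1.02 ± 0.37 and 1.01 ± 0.40 (SE, edgeR adjusted p = 0.019, 0.0348 and 0.0554). The 1M call of RT1-T24-3 was lost without control replicate 2, control replicate 3 or 1M replicate 1 (adjusted p = 0.058, 0.0766 and 0.0527), and the 3M call without control replicate 2, control replicate 3 or 3M replicate 3 (0.0921, 0.125 and 0.166) and with the replicate block (0.0663).

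RT1-N3 was at 17.2, 14.6 and 13 CPM in control, at 17, 15.6 and 14.3 at 1M, at 12.8, 11.9 and 20.4 at 3M, and at 14.3 and 14 at 6M. In CPM it overlapped control at every time, with log2 fold changes of 0.071 ± 0.20, 0.015 ± 0.20 and -0.067 ± 0.22 (SE, edgeR adjusted p = 0.783, 0.957 and 0.82). In FPKM, every SCI library of RT1-N3 (3.78 to 6.92) was above every control (2.07 to 2.87), and limma on log2(FPKM + 1) called it higher at each time (0.73, 0.77 and 0.73, limma adjusted p = 0.00482, 0.00274 and 0.00876), so its call depended on the unit. RT1-M2 had no count in any control library and was at 0.546, 0.554 and 2.49 CPM at 1M, at 1.59, 2.73 and 5.12 at 3M, and at 1.59 and 1.06 at 6M. Against the floor of 3 counts over the control group, 0.0817 CPM, it was at least 14.7-fold higher at 1M, 38.5-fold higher at 3M and 16.2-fold higher at 6M.

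The other class I rows had few counts. RT1-T24-2 was at 0.119 to 0.798 CPM in control and 1.08 to 4.11 CPM after SCI, and was higher at each time (log2 fold change 2.01, 2.25 and 1.86; edgeR adjusted p = 0.0125, 0.00601 and 0.0266). RT1-S2, RT1-A3, RT1-CE2, RT1-CE6 and RT1-T24-1, all at no more than 4.95 CPM in a library, were not called at any time in counts. RT1-CE2, with 3 to 46 counts in a library, had FPKM values of 14.2 to 36.6 in the SCI libraries, all above the 4.31 to 8.57 of control. RT1-M6-1, RT1-M6-2, RT1-CE3 and RT1-M5 failed the filter. In the fit of all rows with a count, RT1-M6-1 and RT1-M6-2 were higher at 3M (log2 fold change 1.73 and 2.04; edgeR adjusted p = 0.0465 and 0.0282) and at no other time, and RT1-CE3 and RT1-M5 were not called.

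Some class I rows were decided by one library. RT1-CE16 had 238, 146 and 398 counts in control, 1864, 1331 and 836 at 1M, then 2128, 787 and 41 at 3M, and lastly 1299 and 896 at 6M. In CPM this was 22.2, 17.3 and 22.7 in control, 37.7, 49.1 and 34.2 at 1M, then 78.9, 29 and 1.72 at 3M, and lastly 57.5 and 29.7 at 6M. Every SCI library was above control except 3M replicate 3, which was 0.0319 times the mean of the other 3M libraries. With that library the log2 fold changes of 0.95, 0.81 and 1.06 were not called (edgeR adjusted p = 0.346, 0.412 and 0.34), and without it they were 0.95, 1.37 and 1.06 and all called (0.0489, 0.015 and 0.0474). RT1-A3 showed the same library at 0 counts, against 124 and 57 in the other 3M libraries, and without it was called at all 3 times (log2 fold change 1.62, 1.48 and 1.19; edgeR adjusted p = 0.0079, 0.0162 and 0.0448).

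RT1-N2 was at 10.9, 11.4 and 10 CPM in control, at 3.76, 11.1 and 9.37 at 1M, at 2.11, 7.41 and 28.1 at 3M, and at 8.9 and 8.15 at 6M. Here 3M replicate 3 was the highest of all libraries, 5.90 times the mean of the other 3M libraries, and RT1-CE2 had a ratio of 3.87. The log2 fold change of RT1-N2 was 0.22 ± 0.71 at 3M (SE, edgeR adjusted p = 0.807) and -1.17 without that library (adjusted p = 0.0863), and at 1M and 6M it was -0.42 ± 0.71 and -0.33 ± 0.80. A 3-fold gap chosen after these values were seen placed 3M replicate 3 below both other 3M libraries in 2 of 34 members, against 0.209% of all genes, and above both in 2 of 34, against 0.37%. The same library had the highest summed level of the erythroid markers Hbb and Alas2, 1930 CPM against 479 and 572 CPM in the other 3M libraries. Its sums of granulocyte, natural killer cell, T cell, meninges and fibroblast, oligodendrocyte and Schwann cell markers were also the highest at 3M. Those of B cell, microglia and macrophage, endothelium, neuron and astrocyte markers were the lowest, and that of dendritic cell markers lay between. The part of any of these cells in these rows was not tested.

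**Figure D2:**
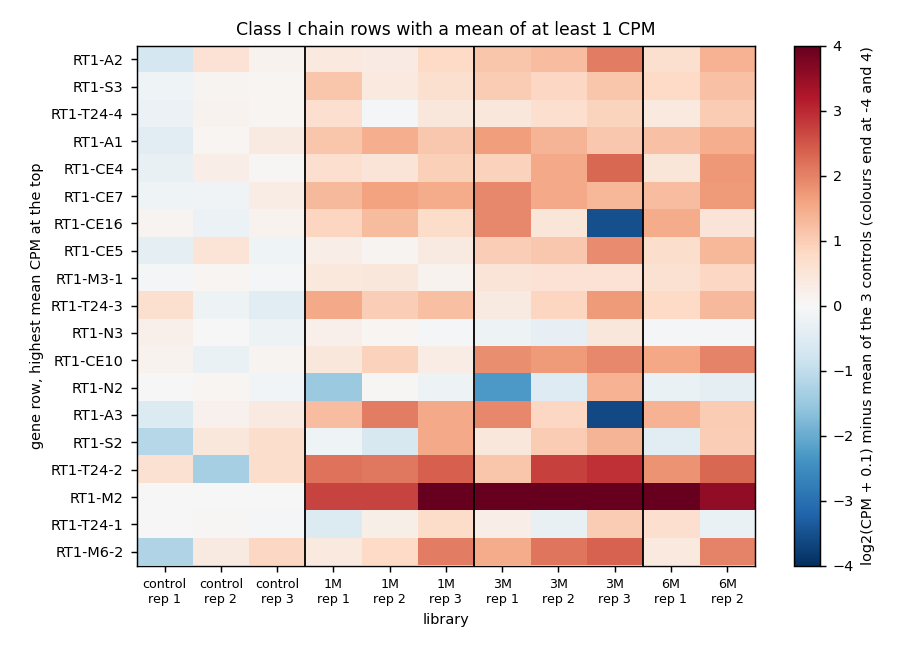
Level of each class I chain row with a mean of at least 1 CPM (y axis) in every library (x axis), as log2(CPM + 0.1) minus the mean of the 3 controls. Most rows are red in the 8 SCI libraries; 3M replicate 3 is dark blue in RT1-CE16 and RT1-A3, and RT1-N2 differs in sign among the 3M libraries.

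The class II chains spread widely within every group. RT1-Da, the alpha chain of the D molecule, was at 132, 58.2 and 69.1 CPM in control, at 64.1, 102 and 73.5 at 1M, at 85.4, 54.4 and 136 at 3M, and at 62 and 64.4 at 6M. RT1-Db1, its beta chain, was at 51.3, 23.7 and 26.7 CPM in control, at 12.5, 31.7 and 20.8 at 1M, at 31, 23.9 and 75.9 at 3M, and at 24.7 and 25.8 at 6M. In both chains the highest library of control, 1M and 3M was replicate 1, 2 and 3, and the control range overlapped every SCI group. The log2 fold changes were -0.12 ± 0.36, 0.087 ± 0.36 and -0.45 ± 0.40 for RT1-Da and -0.65 ± 0.47, 0.36 ± 0.46 and -0.42 ± 0.52 for RT1-Db1 (SE, smallest edgeR adjusted p = 0.254).

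RT1-Ba, the alpha chain of the B molecule, was at 49.7, 11.5 and 18.6 CPM in control, at 20.9, 45 and 26.7 at 1M, at 24.6, 12.5 and 20.5 at 3M, and at 20.1 and 15.2 at 6M. RT1-Bb, its beta chain, was at 56.7, 25.4 and 30.2 CPM in control, at 30.4, 53.6 and 25.4 at 1M, at 45.5, 19.8 and 28 at 3M, and at 31 and 24.8 at 6M. Control replicate 1 and 1M replicate 2 were again the highest of their groups, but at 3M it was replicate 1, and in FPKM RT1-Bb was highest in 3M replicate 3 (27.9 against 19.7 and 9.35), so the order of the 3M libraries depended on the unit. The log2 fold changes were 0.21 ± 0.47, -0.47 ± 0.48 and -0.60 ± 0.54 for RT1-Ba and -0.039 ± 0.38, -0.27 ± 0.38 and -0.42 ± 0.43 for RT1-Bb (SE, smallest edgeR adjusted p = 0.373). RT1-Db2 stayed at or under 0.0933 CPM and RT1-Ha had no count in any library.

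Cd74, the invariant chain, was at 555, 251 and 286 CPM in control, at 336, 529 and 366 at 1M, at 329, 238 and 607 at 3M, and at 273 and 260 at 6M. It was high in the same 3 libraries as the D chains, and the groups overlapped. The log2 fold change was 0.17 ± 0.36, 0.10 ± 0.36 and -0.45 ± 0.41 (SE, edgeR adjusted p = 0.709, 0.822 and 0.372), with 95% intervals from -0.63 to 0.98, from -0.70 to 0.91 and from -1.36 to 0.46. A change of Cd74 within these intervals was not detectable at this spread. With a control mean of 216 FPKM, Cd74 was above every MHC heavy or class II chain and below B2m.

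Control replicate 1 carried much of the class II spread in control. Without it, RT1-Ba was called higher at 1M (log2 fold change 1.02, edgeR adjusted p = 0.047) and at 0.34 and 0.20 at 3M and 6M (adjusted p = 0.46 and 0.712), and the other 3 class II chains and Cd74 remained uncalled. For Cd74 the values without that library were 0.62, 0.55 and -0.02 (edgeR adjusted p = 0.146, 0.183 and 0.975), and for RT1-Da 0.33, 0.54 and -0.019. Marker sums were set beside the 3 libraries with high Cd74. The summed level of 6 dendritic cell markers was the highest of its group in control replicate 1 (34 against 26.4 and 24.4 CPM), the lowest in 1M replicate 2 (38 against 40.5 and 38.3) and the middle one in 3M replicate 3 (33.5 against 33.6 and 31.3). The sum of 6 B cell markers was lowest of its group in control replicate 1 (3.73 against 7.11 and 7.98 CPM), highest in 1M replicate 2 (29.1 against 21.8 and 27.4) and lowest in 3M replicate 3 (11.5 against 21.7 and 15.3). At 6M the dendritic sum was 25.4 to 27.1 CPM and the B cell sum 7.44 to 7.88 CPM, no marker of either list was at 0 in all libraries, and the part of these cells in the class II levels was not tested.

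Of the loading chains, the beta chains of DM and DO were called. RT1-DMb, the beta chain of DM, was at 0.28, 1.07 and 0.912 CPM in control, at 1.96, 1.99 and 1.31 at 1M, at 1.59, 1.95 and 1.72 at 3M, and at 1.86 and 1.39 at 6M. It lay above control in every SCI library in CPM but not in FPKM, with log2 fold changes of 1.22 ± 0.37, 1.21 ± 0.38 and 1.09 ± 0.41 (SE, edgeR adjusted p = 0.0169, 0.0165 and 0.0425). RT1-DOb, the beta chain of DO, was at 1.4, 0.948 and 1.71 CPM in control, at 4.25, 6.02 and 3.48 at 1M, at 4.82, 2.95 and 2.64 at 3M, and at 2.61 and 2.65 at 6M. It passed the filter only through the SCI libraries (1.39 to 2.77 FPKM against 0.276 to 0.756 in control). It was higher without overlap, by 1.70 ± 0.33 and 1.31 ± 0.33 at 1M and 3M (log2, SE, edgeR adjusted p = 0.00158 and 0.00593), and had 0.91 ± 0.36 at 6M (adjusted p = 0.056). The alpha chains had no call: RT1-DOa was at 0.237 to 3.27 CPM with log2 fold changes of 0.16, 0.83 and -0.51, and RT1-DMa, at 0.627 CPM or less, failed the filter. The counts behind these chains were few, which limits their precision.

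Ciita, the class II activator, was also below the filter. It was at 1.31, 1.07 and 2.17 CPM in control, at 2.22, 3.32 and 2.49 at 1M, at 3.38, 1.59 and 5.2 at 3M, and at 2.48 and 2.32 at 6M. Of the SCI libraries only 3M replicate 2 lay inside the control range. In the fit of all rows with a count, the log2 fold change was 0.88 ± 0.40 at 1M, 1.20 ± 0.40 at 3M and 0.70 ± 0.44 at 6M (SE, edgeR adjusted p = 0.114, 0.0274 and 0.261). The 3M call was lost without 3M replicate 3 (log2 fold change 0.76, adjusted p = 0.151), without 3M replicate 1, without control replicate 1 and without control replicate 2 (adjusted p = 0.0574, 0.104 and 0.114). Nlrc5 and Ciita thus differed in how firmly they were called, and the difference between their changes was not tested.

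**Figure D3:**
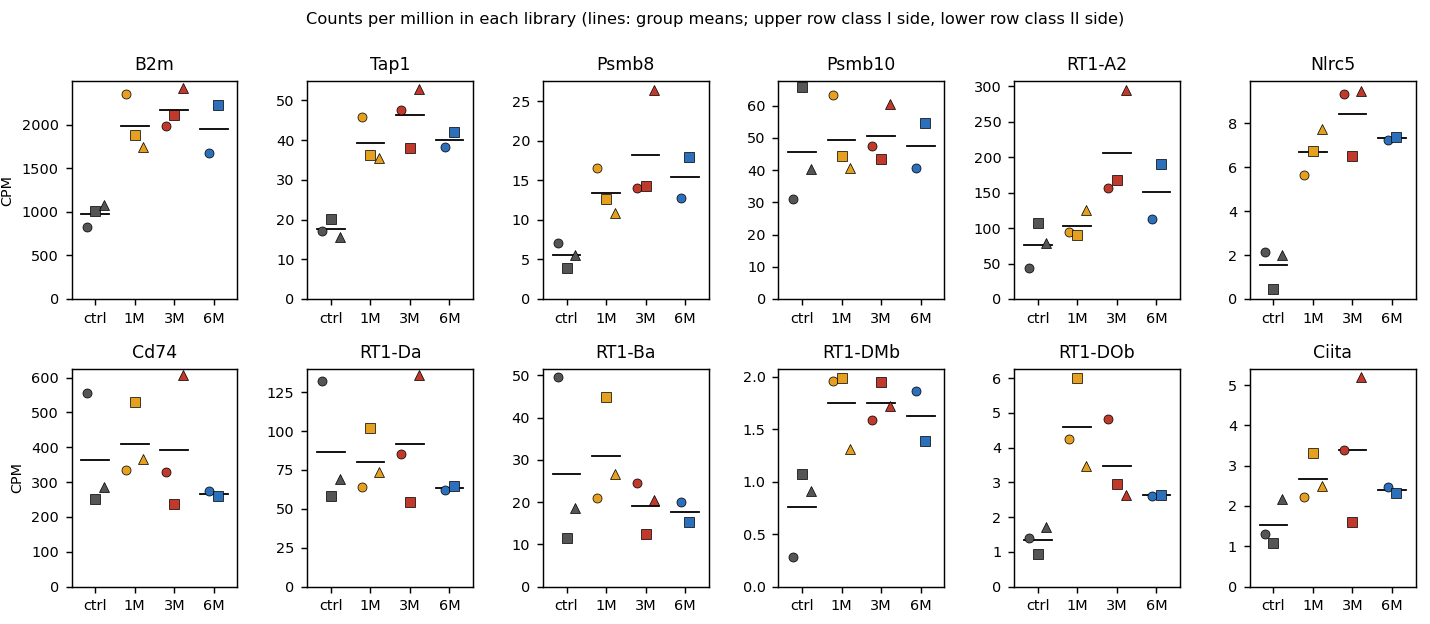
CPM of 12 members in each of the 11 libraries (y axis, linear from 0; x axis, groups; circle, square and triangle are replicates 1, 2 and 3; lines are group means), class I side above and class II side below. B2m, Tap1, Psmb8 and Nlrc5 are separated from control, while Cd74, RT1-Da and RT1-Ba are highest in control replicate 1, 1M replicate 2 or 3M replicate 3 and overlap control.

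Summed over its rows, class I reached 279, 379 and 345 CPM in control, 536, 497 and 535 CPM at 1M, 687, 648 and 882 CPM at 3M, and 556 and 754 CPM at 6M. All SCI sums were above control, and the group means were 1.56, 2.21 and 1.96 times that of control. The class II chains summed to 290, 119 and 145 CPM in control, 128, 233 and 146 CPM at 1M, 187, 111 and 261 CPM at 3M, and 138 and 130 CPM at 6M. These overlapped throughout, and the means were 0.916, 1.01 and 0.727 times control. Without control replicate 1, chosen after seeing the data, they were 1.28, 1.41 and 1.02 times control, and in FPKM 1.14, 1.33 and 0.863 times. The class I sum was 2.18 ± 1.13 times the class II sum in control (SD, n = 3), 3.33 ± 1.07 at 1M (n = 3), 4.31 ± 1.35 at 3M (n = 3) and 4.91 ± 1.24 at 6M (n = 2).

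The ratio overlapped between control and 1M, and its lowest value, 0.96, was that of control replicate 1, where the 2 classes were level. At 3M and 6M all ratios, from 3.38 to 5.86, lay above the control range of 0.96 to 3.19. In FPKM the ratio was 2.49 ± 1.32 in control, 3.66 ± 1.17 at 1M, 4.19 ± 1.41 at 3M and 5.58 ± 1.03 at 6M (SD), and 3M replicate 3, at 2.93, then lay inside the control range of 1.07 to 3.69. These sums are a description and carry no test.

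**Figure D4:**
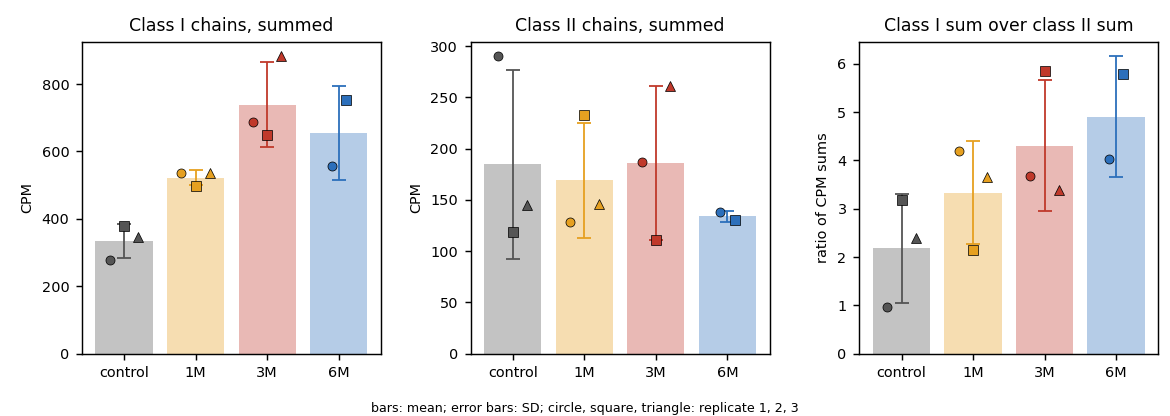
Summed CPM of class I chains (left) and of class II chains (middle) and their ratio (right), by group on the x axis; bars are means, error bars SD and points libraries (n = 3, 3, 3 and 2). The class I sums of SCI libraries, from 497 to 882 CPM, lie above the control sums of 279 to 379 CPM, and the class II sums overlap.

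Between the times, few members differed. At 3M against 1M, 2 of 34 members were called, both class I chains and both higher, against 8.32% of all genes in either direction. RT1-CE10 had a log2 fold change of 1.27 (edgeR adjusted p = 0.00588) and RT1-CE5 of 1.13 (adjusted p = 0.0386). Within the batch that held 1M replicates 1 and 2 and all 3M libraries, with 1 batch per group, RT1-CE10 was at 1.14 (adjusted p = 0.0393) and RT1-CE5 at 1.19 (adjusted p = 0.109). Without 3M replicate 3, RT1-CE10 was at 1.22 (adjusted p = 0.0302) and RT1-CE5 at 0.80 (adjusted p = 0.143). The RT1-CE5 call was also lost without control replicate 3 and without each 1M and each other 3M library (adjusted p from 0.0571 to 0.113). With limma RT1-CE5 was not called either, at 0.69 on log2(FPKM + 1) and 0.7 on log2(FPKM + 0.1) (limma adjusted p = 0.0901 and 0.107). Within that batch the summed class I level was 536 and 497 CPM at 1M and 687, 648 and 882 CPM at 3M. At 6M against 1M, 1 of 34 members was called, RT1-CE10 (log2 fold change 1.22, edgeR adjusted p = 0.00571), against 10.1% of all genes. That call was lost without 6M replicate 2 (0.96, adjusted p = 0.0814) and with only the groups compared (1.22, adjusted p = 0.053). At 6M against 3M, 0 of 34 members were called, with 0 at an unadjusted p under 0.05 in edgeR and in DESeq2 and 2 in limma, and 0.0336% of all genes were called.

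The neighbouring steps of both pathways were counted in the same fit, to be read beside the 25.5%, 29.7% and 26.8% of all genes called higher and the 31.5%, 31.4% and 27.2% called lower at 1M, 3M and 6M. Among 10 genes of class I loading and trimming, 4, 3 and 3 were higher and 3 were lower at each time, the lower ones being Psmb5, Psmb6 and Psmb7. Erap1, which trims peptides in the endoplasmic reticulum, rose by log2 fold changes of 0.87, 0.97 and 1.02 (largest edgeR adjusted p = 0.000207). Among 7 genes of the class II compartment, 6, 5 and 5 were higher and 0, 1 and 1 lower. Ifi30, the lysosomal thiol reductase, rose by 2.14, 1.74 and 1.43, the protease Ctsb by 1.97, 1.65 and 1.18, and the protease Lgmn by 1.40, 0.98 and 0.67 (log2, largest edgeR adjusted p = 0.00515). The compartment genes summed to 1850 to 2050 CPM in control and 3370 to 6450 CPM after SCI, while the class II chains beside them were not called.

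Interferon gamma signalling genes rose in 8, 7 and 7 of 8 tested rows. Irf8, a myeloid transcription factor, rose by log2 fold changes of 2.85, 2.03 and 1.88, and Irf1 by 1.08, 1.49 and 1.01 (largest edgeR adjusted p = 0.000561). Ifng itself had group means of 0, 0, 0.0542 and 0.0497 CPM and was not tested. Of 6 tested factors of the class II promoter, 2, 2 and 1 were higher and 1 lower at each time. Nfya, a subunit of the CCAAT-binding factor NF-Y, rose by 0.65, 0.73 and 0.70, and the subunit Nfyc dropped by 0.43, 0.27 and 0.27 (log2, largest edgeR adjusted p = 0.0233). All 3 tested genes of T cell costimulation and inhibition rose at each time. They were Cd40 (0.87, 1.45 and 1.23), Cd86 (1.75, 1.33 and 0.94) and the inhibitory ligand Cd274 (1.91, 1.54 and 1.20). Of 5 class I like genes, 2, 5 and 4 were higher, with Mr1, which presents vitamin B metabolites, at 0.79, 1.43 and 1.79 and the lipid-presenting Cd1d1 at 0.68, 0.82 and 0.53.

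Markers of cell types changed in both directions after injury, to be read beside the shares of all genes given above. Of 8 microglia and macrophage markers, 7 were higher at each time, and their sum went from 341 to 421 CPM in control to 844 to 1600 CPM after SCI. Of 7 T cell markers, 3, 5 and 4 were higher, with sums of 10.3 to 25 CPM in control and 76.8 to 120 CPM after SCI. Most of that sum was Cd4 (means of 16.5, 91.8, 75.8 and 82.2 CPM in control, 1M, 3M and 6M), which rat macrophages and microglia also express. Cd8a and Cd8b were higher at each time, Cd2 at 3M and 6M and Cd3e at 3M, and Cd3d and Cd3g were not called, with means of at most 1.47 CPM. Endothelial markers were higher in 2, 3 and 3 of 3 tested rows, markers of meninges and fibroblasts in 2, 4 and 1 of 4, and Schwann cell markers in 0, 1 and 3 of 3. Of 3 astrocyte markers, 1, 2 and 3 were higher, and 1 was lower at 1M. Of 2 erythroid markers, 0, 1 and 0 were higher, and the 1 tested marker of natural killer cells was not called. All 4 neuron markers and all 4 oligodendrocyte markers fell at each time, and 4, 1 and 4 of 4 tested granulocyte markers fell. Of 3 tested B cell markers, Cd22 rose at each time and Cd79a and Cd79b fell at 6M, and Ms4a1, which was not tested, had group means of at most 0.801 CPM. Of 3 tested dendritic cell markers, Itgax and Zbtb46 rose at each time and Flt3 fell at 3M and 6M. The part of these cell types in the changes of the MHC genes was not tested.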

How the data were processed

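RNA-seq was performed on 11 libraries of pooled spinal cord tissue after poly-A selection. Per the submitters' processing notes the authors used CASAVA 1.7, TopHat2 2.1.0, HTSeq (no version given) and Cufflinks 2.2.1, with the rat genome Rnor6. The authors deposited whole-number counts per gene from HTSeq and FPKM values from Cufflinks, in which values under 0.1 are listed as 0.1. For strand and for reads shared by near-identical genes, the setting is not given in the sources used here. The members and lists were chosen with earlier results of these data known.

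Counts of each gene that exceeded 1 FPKM somewhere among the libraries were fitted in R 4.3.3 with edgeR 4.0.16 (trimmed mean of M-values scaling, robust quasi-likelihood F test, 1 fit of all 11 libraries on condition). Calls needed a Benjamini-Hochberg adjusted p under 0.05. Standard errors were derived from F and the log2 fold change, and 95% intervals are unadjusted. The study's own test was DESeq between pairs of groups, with an adjusted p under 0.01 and a fold over 2. Alternatives were other scalings, DESeq2 1.42.0, limma 3.58.1 on log2(FPKM + 1) and log2(FPKM + 0.1), other filters, only the groups compared, a replicate block, 1 batch per group, the counts of 1M replicate 1 divided by 2 (its total exceeds the read pairs listed for it), and each library left out. The fit was tested on simulated data. Every library is given for members with a mean of at least 5 CPM, for Ciita and Nlrc5, and for a few lower rows named after their values were seen. Of neighbouring pathway genes, those called at all 3 times were named, at most 3 a list by the change at 3M, and a gene or motif that this would add is not reported here. Promoter windows came from RefSeq and motifs were sought on both strands. Precision is limited by 2 or 3 libraries a group and totals of 10057646 to 49986531 counts, and p-values measure the spread between pools.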

Additional observations from a re-analysis of the deposited data

Results flagged for a closer look

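The change of RT1-CE10, a class I chain, differed between the times after injury. It was higher at 3M than at 1M by a log2 fold change of 1.27 and higher at 6M than at 1M by 1.22, with every 3M and 6M library above every 1M library (edgeR adjusted p = 0.00588 and 0.00571). The 6M call was lost without 6M replicate 2 (adjusted p = 0.0814) and with only the groups compared (0.053). RT1-CE5, another class I chain, was higher at 3M than at 1M by a log2 fold change of 1.13, with every 3M library above every 1M library (edgeR adjusted p = 0.0386). That call was lost within the shared batch, without control replicate 3, without any 1M or 3M library and with limma at either pseudocount.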

How the results depend on the processing

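At an adjusted p under 0.01 with a fold over 2, the thresholds of the study, members higher were 7 at 1M and 6 at 6M, class I chains 2 and 3, processing genes at 6M 3, DM and DO chains 1, 1 and 0 at 1M, 3M and 6M, and members differing between 3M and 1M 1. The share of all genes was not counted at these thresholds or in the other fits named here, apart from genes higher than control without a filter. An excess of members over that share is thus not shown there. With 1 batch per group, 11 members and 6 class I chains were higher at 6M, and RT1-T24-2 and RT1-T24-3 lost their 1M calls (adjusted p = 0.0567 and 0.122). The 1M count of class I chains was 13 with limma on log2(FPKM + 0.1), a fit that also moved the median of all genes at 1M by 0.39 (log2). DM and DO chains at 1M were 1 with limma at either pseudocount. At 6M they were 2 with total counts, upper quartile scaling, DESeq2, no filter and filterByExpr, and 0 with only the groups compared, the replicate block and 1 batch per group. Between 3M and 1M, 1 member was called with limma at either pseudocount, no filter, the replicate block and 1 batch per group, and between 6M and 1M 2 with DESeq2 and 0 with only the groups compared. In FPKM the class I sum was 1.96 times control at 1M and 2.41 times at 6M and the class II sum 1.14, 1.33 and 0.863 times at 1M, 3M and 6M, and without its highest row the class I sum was 1.63 times control at 1M. The causes were not tested.

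With each library left out in turn, members higher at 6M ranged from 10 to 19, class I chains from 5 to 10 at 1M and from 6 to 14 at 6M, and DM and DO chains at 6M from 0 to 1. Class II chains called at 1M ranged from 0 to 1 (RT1-Ba, without control replicate 1), members differing between 3M and 1M from 1 to 2 and between 6M and 1M from 0 to 1 (0 without 6M replicate 2). The share of all genes called with a library left out, here and above, was not counted. Leaving out libraries for the summed levels was chosen after seeing the data. It gave ratios to control from 1.44 to 1.68 at 1M for class I, and from 0.743 to 1.28 at 1M and 0.617 to 1.02 at 6M for class II.

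The sign turned for members that were not called, and of these values the limma ones of RT1-N3 at 6M passed the threshold (adjusted p = 0.00876 and 0.00772). At 1M, RT1-Bb was 0.17 with total counts, 0.084 with upper quartile scaling, 0.091 without a filter, 0.059 with filterByExpr, 0.057 with only the groups compared, 0.03 with the replicate block, 0.023 with 1 batch per group, and 0.26 and 0.28 with limma on log2(FPKM + 1) and log2(FPKM + 0.1). In the first 3 of these settings RT1-Da at 1M was 0.097, 0.0085 and 0.012 and RT1-N3 at 6M was 0.15, 0.064 and 0.035, and RT1-N3 was 0.0056 with filterByExpr. With limma at the larger and the smaller pseudocount, RT1-Da at 1M was 0.30 and 0.31, RT1-N3 at 6M 0.73 and 0.92, RT1-N2 0.17 and 0.19 at 1M and 0.22 and 0.27 at 6M, RT1-Ba at 3M 0.099 and 0.12, RT1-Bb at 3M 0.44 and 0.47, RT1-CE16 at 3M -0.39 and -0.49, and RT1-Ba at 6M 0.0076 with the smaller one. With 1 batch per group at 3M, RT1-N3 was -0.082, Cd74 -0.044 and RT1-Da -0.055, and Psmb10 at 6M was -0.02. With 1 library left out, the ranges were -0.052 to 0.62 (1M) and -0.36 to 0.55 (3M) for Cd74, -0.099 to 0.47, -0.05 to 0.50 and -0.18 to 0.40 for Psmb10 at 1M, 3M and 6M, -0.16 to 1.02, -0.80 to 0.34 and -0.95 to 0.20 for RT1-Ba, -0.42 to 0.39 (1M) and -0.65 to 0.17 (3M) for RT1-Bb, -0.33 to 0.33 (1M) and -0.31 to 0.54 (3M) for RT1-Da, -0.30 to 0.80 for RT1-Db1 at 3M, -0.43 to 1.37 for RT1-CE16 at 3M, -1.17 to 0.72 for RT1-N2 at 3M, and -0.015 to 0.19, -0.27 to 0.16 and -0.17 to 0.043 for RT1-N3. Fold changes against control were tallied for tested members with a mean of at least 5 CPM and for Ciita and Nlrc5. Under settings other than leaving out a library, 857 kept sign and side of the threshold, 21 gained a call, 15 lost one and 37 changed sign. The members with fewer counts are not in this tally.

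Deviations of libraries with the same replicate number correlated between -0.56 and 0.42, so the numbers were not taken to pair the libraries. The replicate block gave 14 members higher at 1M, where RT1-CE10 lost its call (log2 fold change 0.55, edgeR adjusted p = 0.0661), RT1-T24-3 lost its call at 3M (0.99, adjusted p = 0.0663), and RT1-N2 was -0.28 at 3M and 0.001 at 6M with the block. Scaling moved the median of all genes, by 0.21, 0.22 and 0.22 (log2) at 1M, 3M and 6M with total counts, by 0.11, 0.13 and 0.13 with upper quartile scaling, and by 0.31, 0.36 and 0.30 with limma on log2(FPKM + 1).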

Other observations

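The tables also held 2 long noncoding rows that share a name with a class I member. RT1-T24-2, of that type, was at 1.49, 0.948 and 1.48 CPM in control, at 1.33, 2.29 and 2.86 at 1M, at 2.45, 1.84 and 0.965 at 3M, and at 2.21 and 1.99 at 6M, so its groups overlapped while those of the protein-coding row of the same name did not. RT1-CE6, of that type, had at most 6 counts in a library.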
